A study of Homo sapiens with 6 samples.

Results

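Cyclins, cyclin-dependent kinases (CDKs) and CDK inhibitors were examined in RNA-seq read counts of H2122, a lung cancer cell line. Members were taken by symbol, as every row named CCN plus a letter and an optional digit, CDK plus a number, or CDKN1, CDKN2 or CDKN3 with an optional letter, which gave 55 of the 59050 gene symbols in the files. Of these, 50 passed the filter on low counts and were tested. The 5 that did not were CCNA1, CCND2, CDK15, CDKN2A and CDKN2B. Samples were 3 libraries with genotype SMARCA4 KO, the knockout, and 3 with genotype WT, the parental line, and cells of both groups received vehicle. All 3 knockout titles carry the number 1, while the parental titles carry 1, 3 and 6 for replicates 1, 2 and 3. What this number marks is not stated, so the knockout libraries could be repeats of a single clone. Nothing in the labels says that replicates were separate cultures, and p-values therefore measure the spread between these samples only, which may be technical.

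A cyclin binds a CDK and switches on its kinase activity, and different pairs act in different parts of the cell cycle. D-type cyclins with CDK4 or CDK6, and E-type cyclins with CDK2, start phosphorylation of the retinoblastoma protein and release E2F transcription factors in G1, cyclin A acts in S phase and G2, and cyclin B with CDK1 drives mitosis. INK4 proteins (CDKN2 genes) block CDK4 and CDK6, CIP/KIP proteins (CDKN1 genes) act on CDK2 complexes and bind D-type complexes too, and a further set of cyclins and CDKs acts on transcription by RNA polymerase II, where CDK7 with cyclin H also activates the CDKs of the cell cycle.

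Libraries held between 55120937 and 59917980 reads assigned to genes. Levels are given as CPM, reads scaled to a common library total with TMM factors, and 3 reads, taken as the limit of detection in 1 library, correspond to 0.0497 to 0.0544 CPM; such limits cover counting error only. SMARCA4, the targeted gene, had 20.7, 19.3 and 24.9 CPM in the knockout against 232, 214 and 335 CPM in parental replicates 1, 2 and 3 (log2 fold change -3.59, SE 0.22, edgeR adjusted p = 0.000176). The first principal component of the genes tested held 74.6% of the variance. It set the knockout libraries (-61.8 to -61.3) apart from the parental ones (58.8 to 66.9). On the second, which held 22.9%, parental replicate 3 lay at 66.6 and parental replicates 1 and 2 at -33.9 and -37.2. The knockout libraries lay between these, from -0.13 to 3.74. The summed level of 9 epithelial and lung carcinoma markers was 3158 to 3423 CPM in the knockout and 6932 to 7701 CPM in the parental libraries; of its lung markers, NKX2-1 had 1, 0 and 0 reads in the knockout against 17, 12 and 8 in the parental libraries, SFTPB 0 to 11 reads and NAPSA 29 to 90 reads per library. Summed levels in the knockout and parental groups were 53.4 to 58.1 and 39.3 to 110.1 CPM for 7 fibroblast markers, 1.27 to 1.77 and 0.686 to 1.37 CPM for 5 endothelial markers, and 0.599 to 0.894 and 1.47 to 1.78 CPM for 7 haematopoietic markers, with PTPRC and THY1 at 0 reads throughout. Within the fibroblast list, LUM rose from 0.368 ± 0.0168 to 26.8 ± 2.402 CPM (6.18, adjusted p = 8.98e-06) and COL3A1 from 0.158 ± 0.200 to 5.10 ± 0.0918 CPM (5.00, 0.00562), while COL1A1 fell from 64.5 ± 38.7 to 23.5 ± 1.74 CPM (-1.46, 0.0408). Within the epithelial and lung list, 5 of the 7 tested genes fell, 0 rose and 2 did not pass. KRT19 fell from 1344 ± 114 to 31.8 ± 0.689 CPM (-5.40, adjusted p = 8.98e-06). CDH1 fell from 341 ± 174 to 5.56 ± 0.105 CPM (-5.94, 0.000553) and EPCAM from 371 ± 39.3 to 74.2 ± 4.92 CPM (-2.32, 0.000102). The part of these markers in the results was not tested.

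Because of parental replicate 3, fits were made with all 6 libraries and again without that library. With all 6, 3 members rose and 7 fell in the knockout at an adjusted p under 0.05, where 27.6% of the 17809 genes tested were called (13.3% rising, 14.3% falling). Without parental replicate 3, 15 members rose, 18 fell and 17 did not pass, beside 61.6% of 18372 genes (30.8% rising, 30.8% falling). The share of members called, 10 of 50 and 33 of 50, was thus below the share of all genes in the first fit and near it in the second. The median log2 fold change of the 50 members was -0.17 and -0.060 in these fits, against 0.019 and 0.036 over all genes tested. The knockout and parental libraries did not overlap for 21 of the 50 members, beside 49.8% of all genes tested.

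**Figure D1:**
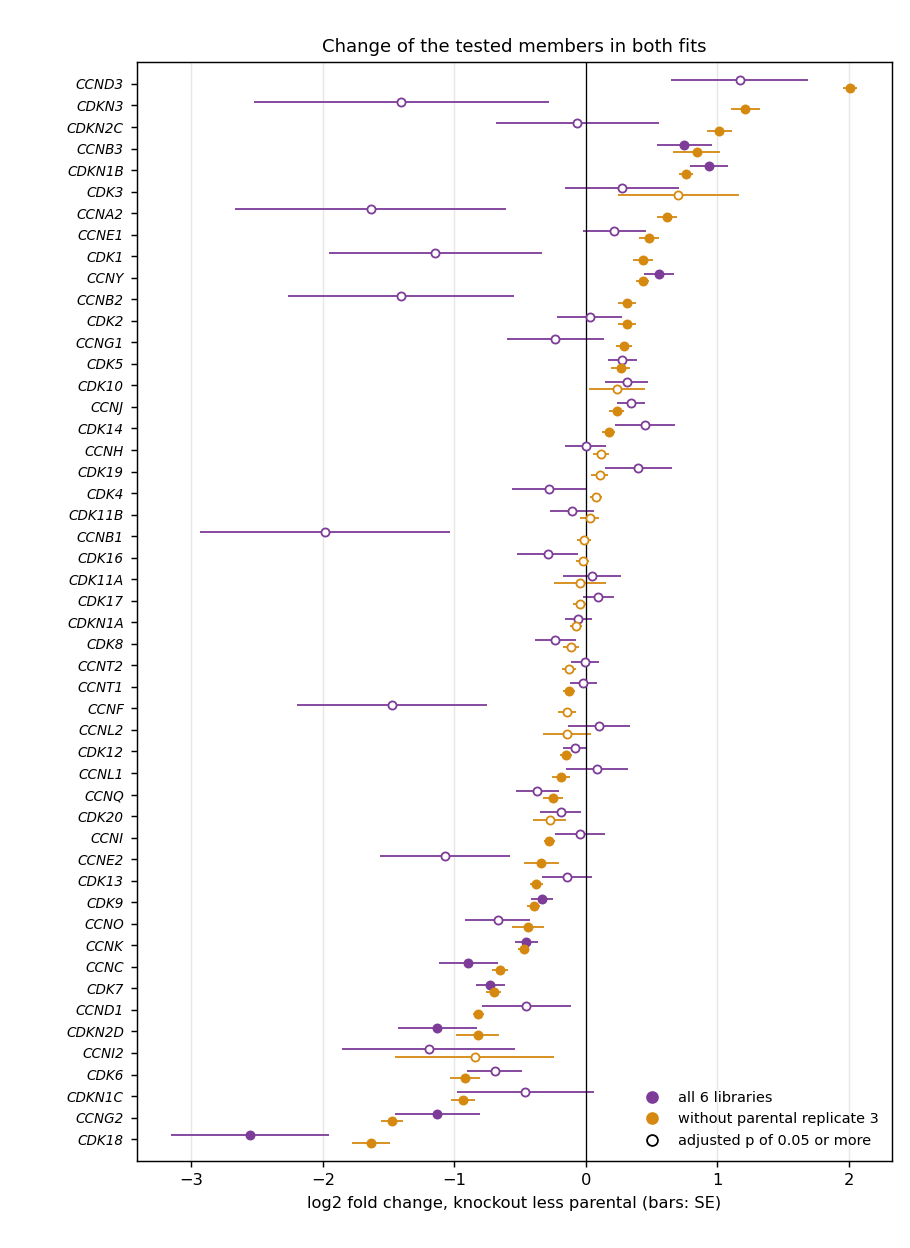
Knockout minus parental log2 fold change for the 50 tested members, with all 6 libraries (purple) and without parental replicate 3 (orange); bars are SE and open points did not pass. CCNA2, CCNB1, CCNB2, CDK1 and CDKN3 have wide bars with all 6 libraries, while CDKN1B and CDK7 lie in nearly the same place in both fits.

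Apart from CCNB3, the tested S and G2/M cyclins and CDK1 were far higher in parental replicate 3 than in any other library. For these, the knockout lay near or a little above the remaining parental pair. CCNB1, cyclin B1, was measured at 37.5, 34.8 and 34.9 CPM in the knockout and at 35.5, 34.3 and 354 CPM in parental replicates 1, 2 and 3. The knockout and the first 2 parental libraries overlapped, and parental replicate 3 stood 10.1 times above the mean of that pair. CCNA2, cyclin A2, was at 19.4, 18.0 and 16.5 CPM in the knockout and at 11.8, 10.9 and 145 CPM in the parental libraries. CCNB2, cyclin B2, was at 19.4, 19.7 and 17.6 CPM against 14.9, 14.4 and 121 CPM. CDK1, the mitotic kinase itself, was at 25.2, 25.9 and 23.5 CPM against 19.2, 16.3 and 129 CPM. In these 3 genes every knockout library lay above parental replicates 1 and 2 and below parental replicate 3.

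With all 6 libraries none of these genes passed: the log2 fold change was -1.98 for CCNB1 (SE 0.95, adjusted p = 0.180), -1.64 for CCNA2 (SE 1.03, 0.294), -1.41 for CCNB2 (SE 0.86, 0.281) and -1.14 for CDK1 (SE 0.81, 0.348). Without parental replicate 3, CCNA2 (0.62, SE 0.078, adjusted p = 2.38e-05), CDK1 (0.44, SE 0.076, 0.000308) and CCNB2 (0.32, SE 0.069, 0.00171) rose. CCNB1 did not pass in that fit either (-0.015, SE 0.054, 0.822). CCNF, an F-box protein and substrate receptor that keeps the cyclin name, had 12.4, 12.1 and 12.2 CPM against 13.0, 13.1 and 75.9 CPM, and did not pass in either fit (adjusted p = 0.189 and 0.0956). CCNB3, cyclin B3, differed from the others of its class: it rose from 1.31 ± 0.277 to 2.21 ± 0.0934 CPM (SD, n = 3 each; 0.75, SE 0.21, adjusted p = 0.0421, and 0.84, SE 0.18, 0.00140 without parental replicate 3), and parental replicate 3, at 1.57 CPM, was only 1.32 times the other parental libraries. CCNA1, the germ-line cyclin A, had 0 to 2 reads per library.

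In bulk RNA, fewer cells in a phase and less RNA per cell cannot be told apart. The other proliferation genes examined shared the pattern of CCNA2, CCNB2 and CDK1, which CCNB1, CCNF and CCNB3 did not show. The 15 proliferation markers were listed with earlier results of these data known. None passed with all 6 libraries. All 15 were highest in parental replicate 3, with every knockout library between it and the other parental pair. MKI67, the Ki-67 gene, was at 123.2, 118 and 103 CPM in the knockout and at 79.3, 65.5 and 682 CPM in the parental libraries (-1.27, adjusted p = 0.355). TOP2A, topoisomerase II alpha, was at 112, 113 and 108 CPM against 62.3, 53.3 and 394 CPM (-0.61, adjusted p = 0.604). Both rose without parental replicate 3, by 0.61 (adjusted p = 0.000820) and 0.90 (8.34e-08). Among all genes of at least 0.5 CPM, 34.4% were highest in parental replicate 3 and 21.2% had the knockout in between in either direction. Without parental replicate 3, 13 of the 15 rose and none fell, where 30.8% of all genes rose. The median ratio of parental replicate 3 to the mean of the other parental pair was 8.36 over the 15 markers, 1.12 over the 48 members whose mean reached 0.5 CPM, and 1.00 over the 15021 such genes of all those tested.

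**Figure D2:**
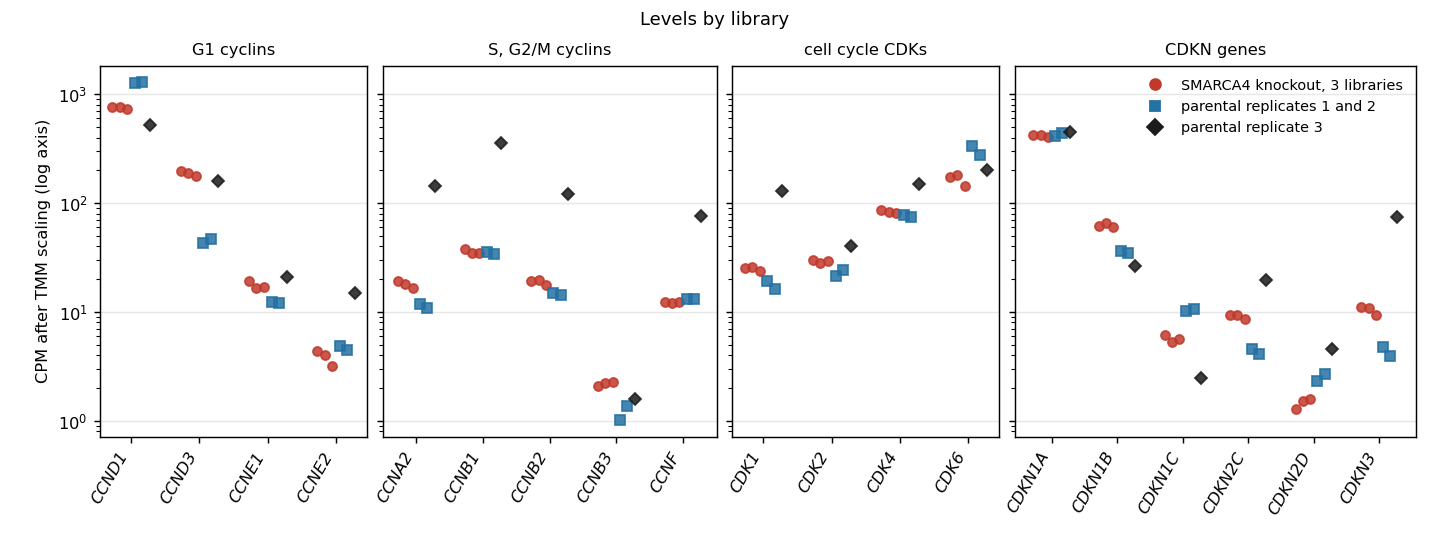
Level of the tested core cell cycle members and CDKN genes in each library, in CPM on a log axis, with knockout libraries as red circles, parental replicates 1 and 2 as blue squares and parental replicate 3 as black diamonds. CCNB1 stands at 354 CPM in parental replicate 3 and between 34.3 and 37.5 CPM in the other 5 libraries, while CDKN1A lies between 404 and 451 CPM in all 6.

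Promoter sequences are shown for the 5 members with the largest ratios of parental replicate 3 to the other parental pair, with CDKN1B beside them as a member lowest in parental replicate 3. Each run is the 200 bases before the RefSeq start (GRCh38.p14, first window listed per gene), read on the strand of the gene. Capitals mark letters found on either strand. They are the CCAAT box, the element called CHR (cell cycle genes homology region) as TTTGAA or in its other form TTTAAA, and the E2F site as TTCCCGC or in the related forms, namely TTGGCGC and also TTCGCGC, each on both strands.
CCNA2, chr4:121823884-121824083, minus strand: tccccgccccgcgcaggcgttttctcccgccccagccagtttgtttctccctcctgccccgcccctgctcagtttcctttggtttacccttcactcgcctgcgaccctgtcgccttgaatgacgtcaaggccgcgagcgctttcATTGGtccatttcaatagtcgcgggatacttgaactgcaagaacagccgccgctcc
CCNB1, chr5:69166950-69167149, plus strand: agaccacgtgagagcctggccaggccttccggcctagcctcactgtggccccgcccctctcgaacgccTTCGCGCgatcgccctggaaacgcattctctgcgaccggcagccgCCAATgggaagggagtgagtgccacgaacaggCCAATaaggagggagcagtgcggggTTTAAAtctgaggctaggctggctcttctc
CCNB2, chr15:59104946-59105145, plus strand: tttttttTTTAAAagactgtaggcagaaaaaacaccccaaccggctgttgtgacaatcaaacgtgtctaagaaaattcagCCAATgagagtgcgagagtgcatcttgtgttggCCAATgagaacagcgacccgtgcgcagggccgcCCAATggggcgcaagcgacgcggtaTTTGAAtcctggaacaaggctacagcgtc
CDK1, chr10:60778131-60778330, plus strand: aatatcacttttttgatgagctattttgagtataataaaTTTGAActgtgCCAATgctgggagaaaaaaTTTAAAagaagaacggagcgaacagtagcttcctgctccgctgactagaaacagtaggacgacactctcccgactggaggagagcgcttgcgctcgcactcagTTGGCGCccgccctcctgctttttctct
CDKN3, chr14:54396807-54397006, plus strand: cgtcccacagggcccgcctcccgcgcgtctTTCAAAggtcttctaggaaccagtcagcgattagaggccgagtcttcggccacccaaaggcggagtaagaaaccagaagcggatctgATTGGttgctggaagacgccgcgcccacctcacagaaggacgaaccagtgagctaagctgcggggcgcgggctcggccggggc
CDKN1B, chr12:12717168-12717367, plus strand: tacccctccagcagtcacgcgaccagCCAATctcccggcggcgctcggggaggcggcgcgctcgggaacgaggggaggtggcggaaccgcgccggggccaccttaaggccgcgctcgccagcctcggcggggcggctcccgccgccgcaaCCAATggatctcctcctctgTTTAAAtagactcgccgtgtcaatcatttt

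Promoter windows were matched for 50 of the 55 members; CCND1, CCND2, CCNE2, CDK2 and CDKN1C were not matched. The search covered 250 bases before to 50 after the start on both strands, where TTTAAA reads alike on both and E2F forms can overlap each other. Only the forms listed above were searched, so a promoter without them can still hold another form of the element. CCAAT was found in 8 of the 10 matched members whose level in parental replicate 3 was over 2 times that of the other parental pair, in 12 of the other 40, and in 34.6% of all 35116 windows of that length. A CHR form was found in 5 of those 10, in 9 of the 40 and in 24% of all windows. An E2F form was found in 2 of the 10, 5 of the 40 and 11% of all. The AP-1 letters TGACTCA were in no matched member and in 4.95% of all windows. The 10 members were picked by the level in 1 library, so these counts are a description with no test. CCNB1 and CCNB2 share a layout, with CCAAT at -87 and at -55 or -54 and a CHR form starting at -30 or -29. CDKN1B, which does not share the pattern of levels, holds both CCAAT and TTTAAA as well.

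**Figure D3:**
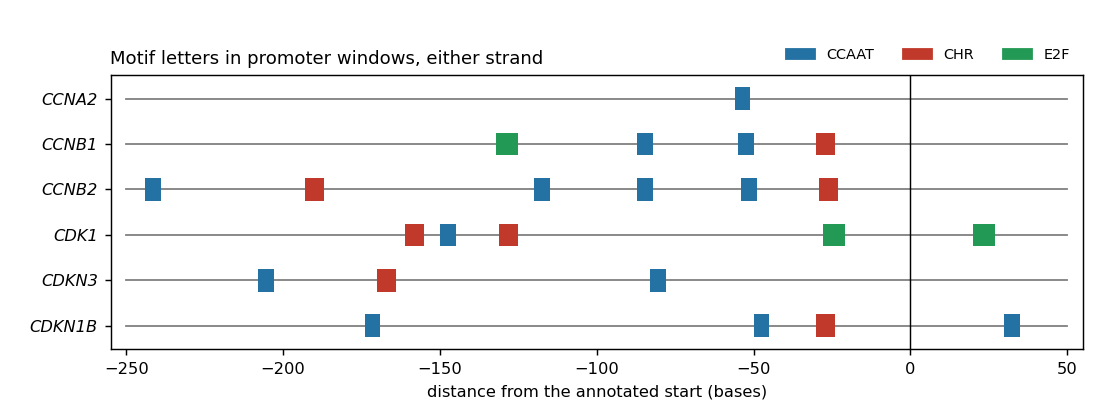
Position of CCAAT, CHR and E2F letters, on either strand, in the promoter windows of 6 members, as distance in bases from the RefSeq start. CCNB1 and CCNB2 have a CHR form starting at -30 and -29 with CCAAT letters upstream of it, and CCNA2 has a single CCAAT. Forms of CHR and E2F other than those listed in the text were not searched.

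The D-type cyclins moved in opposite directions in the knockout when set against parental replicates 1 and 2. CCND1, cyclin D1 (chromosome 11, 69641087 to 69654474, GRCh38), was at 765, 765 and 732 CPM in the knockout and at 1282, 1285 and 526 CPM in the parental libraries. CCND3, cyclin D3 (chromosome 6, 41934933 to 42050357), was at 198, 189 and 178 CPM against 43.4, 46.9 and 161 CPM. Parental replicate 3 was thus the lowest library for CCND1 and close to, though still below, the knockout for CCND3, whose groups did not overlap. With all 6 libraries neither passed (CCND1 -0.45, SE 0.34, adjusted p = 0.377; CCND3 1.17, SE 0.52, 0.154). Without parental replicate 3, CCND1 fell (-0.82, SE 0.040, adjusted p = 3.82e-09) and CCND3 rose (2.01, SE 0.057, 2.01e-11), which was the largest rise among the members in that fit. CCND2, cyclin D2, had 0 to 2 reads per library and no change was detectable at this depth.

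Per exon length, as CPM per kilobase of the union of annotated exons (RPKM), CCND1 stayed the main D-type cyclin in every library. CCND3 made up 17.8%, 17.1% and 16.8% of D-type cyclin RPKM in the knockout, against 2.74%, 2.95% and 20.3% in parental replicates 1, 2 and 3. The summed D-type level was 188.5 ± 5.56 RPKM for knockout and 227.9 ± 79.1 RPKM for parental cells (SD, n = 3 each), with parental libraries at 273, 274 and 136 RPKM. In the sum the knockout lay between parental replicate 3, a single library, and the other parental pair. In the make-up it lay near parental replicate 3.

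The E-type cyclins differed from each other. CCNE1, cyclin E1, was at 19.0, 16.5 and 16.9 CPM in the knockout and at 12.2, 12.02 and 20.9 CPM in the parental libraries, and CCNE2, cyclin E2, at 4.37, 4.01 and 3.16 CPM against 4.90, 4.49 and 14.8 CPM. Neither passed with all 6 libraries (0.22, adjusted p = 0.550, and -1.07, adjusted p = 0.168). Without parental replicate 3, CCNE1 rose (0.48, SE 0.076, adjusted p = 0.000161) and CCNE2 fell (-0.34, SE 0.14, adjusted p = 0.0467). CCNE2 shares 37.1% of its exon bases with genes on the other strand, among them INTS8, which changed by -0.48 in that fit, and reads of overlapping genes on opposite strands cannot be told apart where counting did not use strand.

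Among the kinases of G1, CDK6 was lower in all knockout libraries than in any parental one. It was at 174, 182 and 145 CPM in the knockout and at 334, 276 and 199 CPM in the parental libraries, with a change of -0.69 (SE 0.21, adjusted p = 0.0533) that did not pass with all 6 libraries and of -0.92 (SE 0.12, adjusted p = 0.001002) without parental replicate 3. CDK4, the other partner of D-type cyclins, was at 87.0, 82.1 and 81.1 CPM in the knockout and at 78.1, 74.9 and 151 CPM in the parental libraries and passed in neither fit (-0.28, adjusted p = 0.512, and 0.076, adjusted p = 0.176). Exons of CDK4 overlap TSPAN31 on the other strand over 43.2% of their bases. Per exon length, CDK6 made up 34.0 ± 2.43% of CDK4 and CDK6 together in the knockout, against 52.5%, 48.8% and 25.5% in parental replicates 1, 2 and 3. CDK2, the partner of cyclins E and A, was at 29.7, 28.0 and 29.5 CPM against 21.3, 24.0 and 40.1 CPM, a change of 0.030 (adjusted p = 0.943), and it rose without parental replicate 3 (0.31, SE 0.068, adjusted p = 0.00177). CDK3 had 5 to 15 reads per library and shares 91.2% of its exon bases with the read-through gene TEN1-CDK3.

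CDKN1B, which encodes p27, rose in the knockout whichever libraries were used. CDKN1B (chromosome 12, 12715058 to 12722371) was measured at 61.7, 64.9 and 59.8 CPM in the knockout and at 36.0, 34.9 and 26.4 CPM in the parental libraries. Every knockout library was above every parental one, and parental replicate 3 was the lowest. The change was 0.94 (SE 0.14, adjusted p = 0.00479) with all 6 libraries and 0.76 (SE 0.053, 9.16e-08) without parental replicate 3. CDKN1A, which encodes p21, had the highest level per length of the CDKN genes in all 6 libraries and did not pass in either fit: 425, 419 and 404 CPM against 410.3, 436 and 451 CPM (-0.057, SE 0.10, adjusted p = 0.715, and -0.074, SE 0.044, adjusted p = 0.169). CDKN1C, which encodes p57, was at 6.10, 5.30 and 5.63 CPM against 10.2, 10.7 and 2.44 CPM, so that the knockout lay between parental replicate 3 and the other pair; it did not pass with all libraries (-0.46, adjusted p = 0.558) and fell without parental replicate 3 (-0.93, SE 0.091, 2.19e-06). As a share of CIP/KIP RPKM, CDKN1B made up 13.4%, 14.2% and 13.6% in the knockout, against 8.45%, 7.77% and 5.93%. The CIP/KIP sum was 160.8 ± 4.32 and 156.5 ± 4.44 RPKM in these groups (SD, n = 3 each).

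**Figure D4:**
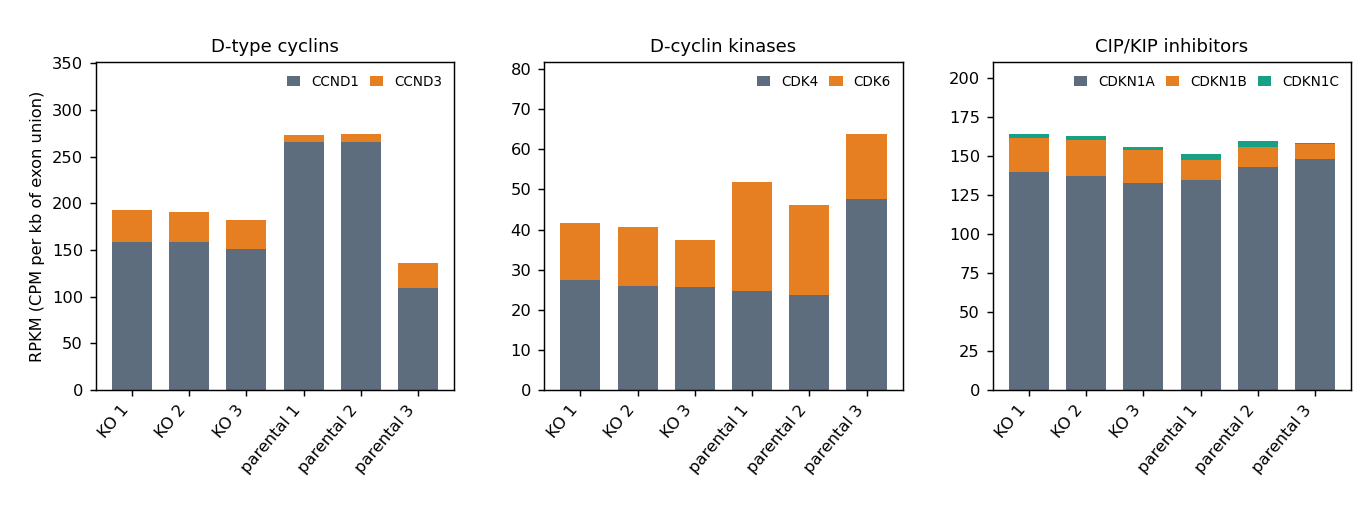
Stacked levels per exon length (RPKM) of the D-type cyclins, of CDK4 and CDK6, and of the CIP/KIP inhibitors in each library. CCND3 takes 16.8% to 17.8% of the D-type sum in the knockout, against 2.74%, 2.95% and 20.3% in parental replicates 1, 2 and 3, while the CIP/KIP sum stays between 151 and 164 RPKM.

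Of the INK4 genes, the pair on chromosome 9 was not detected. CDKN2A, which encodes p16 and p14ARF (chromosome 9, 21967753 to 21995301), had 1 read in parental replicate 2 and 0 in the other libraries, and CDKN2B, which encodes p15 (22002903 to 22009363), had 0 reads in all 6. A count of 0 allows up to 0.0544 CPM. CDKN2C, which encodes p18, was at 9.32, 9.27 and 8.58 CPM in the knockout and at 4.57, 4.09 and 19.8 CPM in the parental libraries. It followed the pattern of CCNA2, CCNB2 and CDK1 and did not pass with all libraries (-0.065, SE 0.62, adjusted p = 0.952), but rose without parental replicate 3 (1.02, SE 0.096, 1.74e-06). CDKN2D, which encodes p19, was low and fell: 1.27, 1.51 and 1.59 CPM in the knockout against 2.33, 2.66 and 4.59 CPM (-1.13, SE 0.30, adjusted p = 0.0355, and -0.82, SE 0.17, 0.000983 without parental replicate 3). CDKN3, a phosphatase that removes a phosphate from CDKs, had the highest ratio of parental replicate 3 to the other parental pair of all members, 17.01. It was at 10.996, 10.9 and 9.32 CPM in the knockout and at 4.75, 3.93 and 73.8 CPM in the parental libraries (-1.40, SE 1.12, adjusted p = 0.407), and it rose without parental replicate 3 (1.21, SE 0.11, 1.19e-06).

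**Figure D5:**
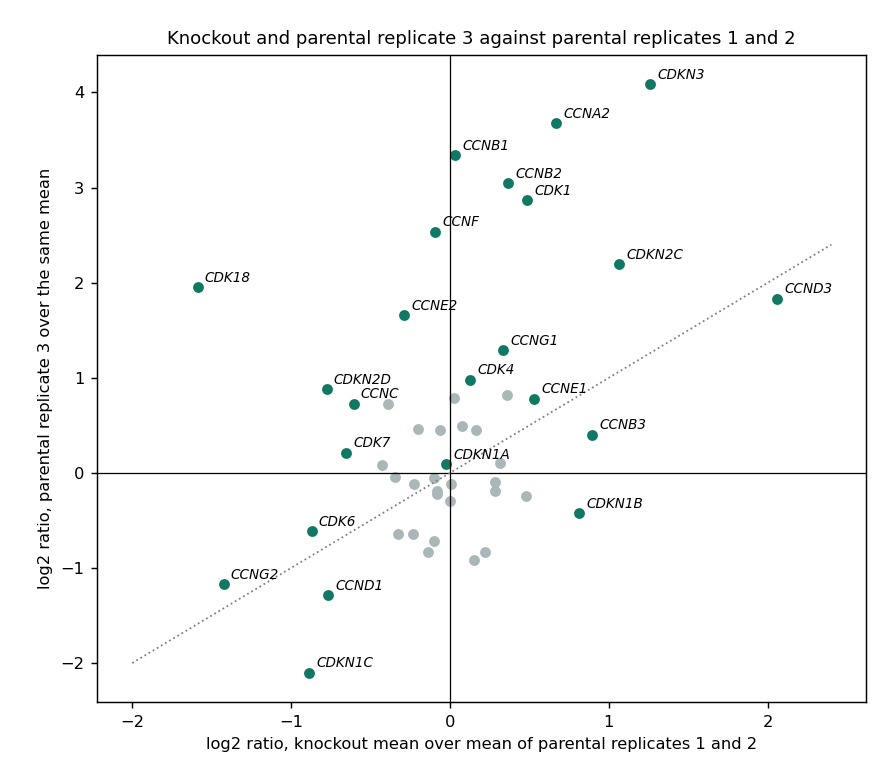
For the 48 members with a mean of at least 0.5 CPM, the log2 ratio of the knockout mean (x axis) and of parental replicate 3 (y axis) to the mean of parental replicates 1 and 2; the dotted line marks equal ratios. CDKN3, CCNA2 and CCNB1 lie highest on the y axis, CCND3 lies near the dotted line, and CDKN1B lies to the right of 0 and below it.

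Set against parental replicates 1 and 2, parental replicate 3 was over 2 times higher for 11 of the 48 members and under 0.5 times for 3, CCND1, CCNG2 and CDKN1C, beside 10.3% and 11.1% of the 15021 genes with that level. It was above all other 5 libraries for 24 members and below them for 14, where all genes gave 34.4% and 33.1%. All knockout libraries lay between parental replicate 3 and the other pair for 15 members, beside 21.2% of all genes. By comparison, the ratio of parental replicate 2 to replicate 1 ran from 0.828 to 1.53 over the 48 members with a median of 0.969, and the coefficient of variation within the knockout had a median of 4.72%.

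The CDKs and cyclins of transcription and RNA processing, a class that includes CCNL1, CCNL2, CDK10, CDK11A and CDK11B, fell or did not pass. Of 7 cyclins and 9 CDKs of that class, 4 fell with all 6 libraries and none rose, where 14.3% of all genes fell and 13.3% rose; without parental replicate 3, 8 fell and none rose, beside 30.8% of all genes in each direction. CDK7, the kinase of the CDK-activating complex and of the general transcription factor TFIIH, was at 26.3, 26.3 and 24.0 CPM in the knockout and at 41.0, 39.3 and 46.5 CPM in the parental libraries. Groups did not overlap, and the change was -0.73 (SE 0.11, adjusted p = 0.00459) with all libraries and -0.70 (SE 0.056, 3.70e-07) without parental replicate 3. Its partners in that complex did not pass in either fit. CCNH, cyclin H, averaged 28.0 ± 2.02 CPM against 28.0 ± 5.29 CPM, and MNAT1, the assembly factor, at 17.1 ± 1.25 and 19.9 ± 2.496 CPM (SD, n = 3 each). CCNH shares 22.3% of its exon bases with genes on the other strand, among them RASA1, which fell (-0.81, adjusted p = 0.0132).

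CDK9, the kinase of the elongation factor P-TEFb, was at 40.4, 38.8 and 39.4 CPM in the knockout and at 50.9, 49.8 and 48.7 CPM in the parental libraries, and it fell (-0.33, SE 0.086, adjusted p = 0.0320, and -0.40, SE 0.049, 1.85e-05 without parental replicate 3). Its cyclins did not pass with all libraries, with CCNT1 at 64.0 ± 2.27 and 64.8 ± 5.17 CPM and CCNT2 at 31.0 ± 0.481 and 31.2 ± 2.87 CPM in the knockout and parental groups. When parental replicate 3 was left out, CCNT1 fell (-0.13, SE 0.049, adjusted p = 0.0391) and CCNT2 did not pass (-0.13, SE 0.055, 0.0659). HEXIM1 and HEXIM2, which hold P-TEFb inactive on the 7SK RNA, rose by 0.52 (SE 0.095, adjusted p = 0.00934) and 0.59 (SE 0.11, 0.0110), and by 0.42 and 0.56 without parental replicate 3. CCNC, the cyclin of the Mediator kinase module, was at 36.5, 37.5 and 33.0 CPM against 56.7, 52.0 and 90.0 CPM (-0.89, SE 0.22, adjusted p = 0.0294, and -0.66, SE 0.060, 1.30e-06 without parental replicate 3), while its kinases CDK8 and CDK19 passed in neither fit (adjusted p = 0.326 and 0.304, and 0.143 and 0.205). CCNK, the cyclin of CDK12 and CDK13, was at 93.4, 95.5 and 93.2 CPM against 127, 126 and 133 CPM (-0.45, SE 0.086, adjusted p = 0.0109, and -0.47, SE 0.042, 1.04e-06 without parental replicate 3). CCNK shares 59.5% of its exon bases with CCDC85C on the other strand, which also fell (-0.97, adjusted p = 0.00606), and their reads cannot be told apart where counting did not use strand. CDK12 and CDK13 did not pass with all libraries (-0.085 and -0.14) and fell without parental replicate 3 (-0.15 and -0.38).

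Of the remaining cyclins and CDKs, CDK18 had the largest fall of the members that passed. CDK18, a PCTAIRE-family kinase, was at 1.31, 1.43 and 1.52 CPM in the knockout and at 4.05, 4.504 and 16.6 CPM in the parental libraries (-2.56, SE 0.60, adjusted p = 0.0239, and -1.63, SE 0.14, 7.62e-07, without parental replicate 3). CCNG2, cyclin G2, was at 8.504, 9.47 and 9.34 CPM against 22.8, 26.1 and 10.9 CPM, where parental replicate 3 sat close to the knockout (-1.13, SE 0.32, adjusted p = 0.0451, and -1.47, SE 0.084, 1.56e-08 without that library). CCNY, cyclin Y, a membrane-bound partner of CDK14 and CDK16, rose: 144, 146 and 137 CPM in the knockout against 107, 96.4 and 85.9 CPM (0.56, SE 0.11, adjusted p = 0.0138, and 0.43, SE 0.051, 1.28e-05 without parental replicate 3). CDK14 and CDK16 did not pass with all libraries (adjusted p = 0.206 and 0.407); without parental replicate 3, CDK14 rose (0.17, SE 0.048, 0.00745) and CDK16 did not pass (-0.025, 0.660). The other members of these classes had log2 fold changes between -1.20 (CCNI2) and 0.34 (CCNJ) with all libraries, and none passed. When parental replicate 3 was left out, CCNG1 (0.29, adjusted p = 0.00142), CDK5 (0.26, 0.00525) and CCNJ (0.24, 0.00382) rose, and CCNO (-0.44, 0.0112), CCNI (-0.28, 0.000103) and CCNQ (-0.25, 0.0121) fell. CDK5 shares 11.3% of its exon bases with SLC4A2 on the other strand, which rose by 0.27 in that fit. CCNL1, counted in the class of transcription and RNA processing, changed sign between the fits, from 0.088 (adjusted p = 0.817) to -0.19 (0.0349). CCNG1 also changed sign, from -0.23 (0.686) to 0.29. CDK11A and CDK11B are near-identical copies whose reads can be exchanged or dropped, and neither passed (adjusted p = 0.900 and 0.684). CDK15 had 4 reads in parental replicate 1 and 0 in the other libraries.

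Of the 10 members called with all 6 libraries, 2 were called in every one of the 14 fits that were made, CDKN1B rising and CDK7 falling, with adjusted p of at most 0.0297 and 0.0377. The other 8 calls were lost when any 1 knockout library was left out. In those fits 1221 to 1298 of all genes rose and 1471 to 1500 fell, against 2365 and 2547 with all 6 libraries. The share of all genes called in every one of the 14 fits was not computed. Calls were also lost without parental replicate 1 for CCNB3, CCNG2 and CDK9, and without parental replicate 2 for CCNB3, CCNG2, CDK9 and CDKN2D.

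Other genes of the cell cycle control system were taken as lists, and each is given as rising and falling with all 6 libraries and then without parental replicate 3. The median log2 fold change with all 6 libraries, 0.019 over all genes tested, was -0.093 for RB and E2F, 0.033 for DREAM, MuvB and FOXM1, -1.004 for CDK phosphatases and inhibitory kinases, -0.44 for CDK partners and 0.024 for the 7SK and P-TEFb regulators. It was 0.21 for Mediator kinase partners, -0.096 for SCF and APC/C, 0.083 for mitogenic and SMAD regulators and -1.23 for the proliferation markers. Of all genes tested, 13.3% rose and 14.3% fell with all 6 libraries, and 30.8% rose and 30.8% fell without parental replicate 3. These lists were drawn up with earlier results of these data known. Of 13 RB and E2F genes, 0 rose and 1 fell, and then 7 rose and 3 fell; the faller was E2F7, an E2F repressor, from 34.3 ± 2.44 to 12.5 ± 0.333 CPM (-1.45, SE 0.11, adjusted p = 0.000273, and -1.45, SE 0.063, 1.11e-09 without parental replicate 3). Of 9 genes of the DREAM and MuvB complexes with FOXM1, 1 rose and 0 fell, and then 4 and 1, and MYBL1 was the riser (1.42, adjusted p = 0.0278, and 1.85, 3.23e-08 without parental replicate 3). Of 5 CDK phosphatases and inhibitory kinases, 0 rose and 1 fell, and then 4 and 1. WEE1, the kinase that places the inhibitory phosphate on CDK1, was the faller, from 16.3 ± 5.41 to 8.12 ± 0.286 CPM (-1.004, SE 0.24, adjusted p = 0.0252, and -0.75, SE 0.077, 3.61e-06 without parental replicate 3). Its opponent CDC25B, named after its values were seen, was at 175, 186 and 197 CPM in the knockout and at 67.3, 70.1 and 204 CPM in the parental libraries (0.71, adjusted p = 0.293), and it rose without parental replicate 3 (1.39, SE 0.062, 3.30e-09).

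Of 11 tested CDK partners and activators, 0 rose and 2 fell, and then 4 and 4; the fallers were CDK5R1, the activator of CDK5 (-1.07, adjusted p = 0.00348), and CABLES2 (-0.62, 0.0168). Of 8 regulators of 7SK and P-TEFb, 2 rose and 1 fell, and then 2 and 4, with the elongation factor ELL2 falling (-0.79, 0.0278) beside the HEXIM genes. None of 4 Mediator kinase module partners passed in either fit, with MED13 at 0.25 and MED13L at 0.23 with all libraries. Of 20 genes of SCF and APC/C, the ubiquitin ligases that degrade cyclins and inhibitors, 1 rose and 1 fell, and then 9 and 3. The APC/C subunit gene CDC16 rose (0.44, adjusted p = 0.0207) and the G1 activator FZR1 fell (-0.67, 0.0244). SKP2, the F-box protein that targets p27, named after its values were seen, was at 27.9, 28.2 and 27.2 CPM in the knockout and at 25.02, 21.3 and 68.3 CPM in the parental libraries (-0.46, adjusted p = 0.494), and it rose without parental replicate 3 (0.21, SE 0.070, 0.0183).

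Of 18 mitogenic and SMAD regulators of G1, 5 rose and 2 fell, and then 7 and 9. ID3, an inhibitor of basic helix-loop-helix factors, rose by 2.1 (adjusted p = 0.00221), BMI1, a Polycomb gene known as a repressor of the CDKN2A locus, by 0.83 (0.00934), and MXD1, a partner of MAX that opposes MYC, changed by -1.63 (0.0141). The other named genes of these lists that passed with all 6 libraries, CDK5R1, CABLES2, ELL2, CDC16, FZR1, ID3, BMI1 and MXD1, passed in the same direction without parental replicate 3.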

How the data were processed

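RNA-seq was measured in 6 libraries of total RNA, 3 per group, taken from the sample titles. The deposited values are whole-number counts of reads for each gene symbol, and the submitters' processing notes name TopHat2 2.1.1, HTSeq 0.11.0 and hg38. Annotation release, filters and strand use were not given in the sources used here. Unassigned reads, 13.8% to 15.3% of each file, were left out. After filterByExpr and TMM scaling, the main test was the two-sided quasi-likelihood F-test of edgeR 4.0.16 with group as the only term and robust dispersion estimates, run in R 4.3.3, with Benjamini-Hochberg adjustment over all genes tested and a threshold of 0.05. SE was derived from the F value. The fit was tested on simulated counts in which genes varied independently, without a library set apart as parental replicate 3 was. Positions, exon lengths and overlaps are from GENCODE 29 on GRCh38, matched by symbol. Of the members, 16 share at least 5% of their exon bases with another gene, and 14 of these were tested. RPKM was computed here as CPM per kilobase of exon union. Replicates of a group differed by more than counting noise. Over genes with at least 100 reads in a pair of libraries, the mean chi-square per gene was 7.40 to 28.9 within the knockout. It was 11.2 between parental replicates 1 and 2, but 520 and 545 between each of these and parental replicate 3. Between knockout and parental libraries it was 437 to 709. Other fits used DESeq2 1.42.0, limma 3.58.1 (voom), RLE or upper-quartile scaling, a replicate block, no filter on low counts, a filter of 1 CPM in 3 libraries, or 1 library fewer. Values per library are given for CDKN genes, core cell cycle members and other members that passed; of each list, up to 3 passing genes with the smallest adjusted p are named, or the 2 with the highest level. Members and lists were chosen with earlier results of these data known. Of the 10 cell cycle lists counted together, 1 is not reported here on its own.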

Additional observations from a re-analysis of the deposited data

How the results depend on the processing

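With each library left out in turn, the number of genes called ranged from 2692 to 11325, of members rising from 1 to 15, of members falling from 1 to 18, and of genes called in the 10 cell cycle lists, 22 with all libraries, from 7 to 89; the highest value of each came without parental replicate 3, and the cause was not tested. With the replicate number as a block, 3040 genes, 2 falling members and 10 list genes were called, and the rise of CCNB3 and the falls of CCNC, CCNG2, CCNK, CDK9 and CDKN2D did not pass. Deviations from the group means correlated by -0.082, 0.00033 and -0.10 for replicates numbered 1, 2 and 3. For replicates with unlike numbers the correlation ran from -0.22 to 0.19, so it cannot tell whether the numbers mark pairs. In the main fit the numbers were not taken as pairs. Over the libraries left out, log2 fold changes changed sign, among others, for CCNA2 (-2.13 to 0.62), CCNB2 (-1.85 to 0.32), CDK1 (-1.58 to 0.44), CDK2 (-0.14 to 0.31), CDK4 (-0.46 to 0.076), CDKN2C (-0.43 to 1.02), CDKN3 (-1.92 to 1.21), MKI67 (-1.74 to 0.61), TOP2A (-1.04 to 0.90), MED13 (-0.045 to 0.41) and MED13L (-0.028 to 0.38). Values that did not pass also changed sign for CDK2 with RLE factors (-0.017), no filter (-0.025) and DESeq2 (-0.017); for CDKN2C with upper-quartile factors (0.0078), limma-voom (0.34) and the block (0.36); for CDKN3 with the block (0.095); and for TOP2A with limma-voom (0.023) and the block (0.086). CDK6 passed with RLE factors, with no filter and in DESeq2. CCNG2 did not pass with upper-quartile factors (adjusted p = 0.0595), the 1 CPM filter (0.0536) or limma-voom (0.0791), CDK9 with upper-quartile factors (0.0561) or no filter (0.0689), and CCNB3 (0.0965) and CDC16 (0.105) with no filter.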

Other observations

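Genes near CDKN2A and CDKN2B on chromosome 9 differed in whether they were detected. MTAP, which encodes an enzyme of methionine salvage and lies next to CDKN2A (21802543 to 21937651, GRCh38), had between 4034 and 5331 reads per library, and DMRTA1, on the other side of CDKN2B (22446841 to 22455740), had between 138 and 237 reads. AL359922.1, an annotated gene that spans CDKN2A and CDKN2B (21802636 to 22032986), and the nearby IFNA1, IFNA2, IFNA8 and IZUMO3 had 0 reads in all 6 libraries. CDKN2B-AS1, which shares exon bases with CDKN2A on the other strand, was above the limit of detection in all 6 libraries, at up to 0.215 CPM. IFNE, between IFNA1 and MTAP, had between 23 and 134 reads per library. ELAVL2, TUSC1, CAAP1 and PLAA, farther out on the side of DMRTA1, had at least 12 reads in each library. These genes were named after their values were seen.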
